A study of Mus musculus with 15 samples.

Results

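The 34 genes described here are interferon-stimulated genes and genes of the MHC class I pathway. They were followed in 15 mouse samples: 12 medulloblastomas, which are tumours of the cerebellum, and 3 normal cerebella. The members were chosen by name, with earlier results of these data known. They were matched to array probes through the RefSeq transcript that the array annotation gives for each probe. Of the 34 genes, 32 were matched. Mx1 and Mx2 had no probe matched in this way and are named here without values. Oas2 was well above background on 1 of 15 arrays and was not tested. The remaining 31 were among 22203 tested probes and genes, of which 13425 carried a gene symbol.

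Each sample was hybridised to its own single-channel (Cy3) Agilent array, with 3 arrays in each of 5 groups. All 12 tumours arose in C3B6F1 mice heterozygous for Ptch1 (Ptch1+/-), a receptor that restrains Hedgehog signalling, so every tumour carried that allele. The S-type tumours were MB1 to MB3 from mice that were not irradiated (0 Gy) and MB4 to MB6 from mice given 0.2 Gy of X-rays at postnatal day 1. The R-type tumours were MB7 to MB9 after 0.2 Gy and MB10 to MB12 after 1.5 Gy, given on the same day of life. The tumour animals were killed when moribund. The labels give S-type and R-type without defining them. The normal cerebella, NC1 to NC3, came from animals that were not irradiated, and no strain or genotype is given for them in the sources used here. All animals were female except that of MB6, a male. Ages, with no unit stated, were 103 to 113 for the normal cerebella, 128 to 173 for S-type and 87 to 127 for R-type tumours. Age and tumour type therefore cannot be told apart. Only 0.2 Gy was given in both types. With the doses of each type pooled, dose and tumour type cannot be told apart either.

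Interferons are secreted proteins that bind cell-surface receptors and act through JAK kinases and STAT proteins. Type I interferons bring a complex that holds STAT2 and IRF9 to the interferon-stimulated response element, whereas interferon-gamma acts mainly through the gamma-activated site. The target genes encode antiviral enzymes, membrane proteins that block virus entry or release, regulators that feed back on the pathway, and the machinery that cuts proteins into peptides and shows them on MHC class I. In the brain, microglia and other macrophages respond strongly to interferons, while most neurons carry little MHC class I.

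The promoters of 5 members are shown because their genes took different directions in the tumours although several hold the same element. They are the 250 bases before the annotated start, read 5′ to 3′ on the gene's strand, from RefSeq on build GRCm38.p6. Capitals mark matches to the response element, searched on both strands as GAAA, any pair of bases, then GAAA (on the other strand TTTC, any pair of bases, then TTTC), and matches to the gamma-activated site, searched as TTCNNNGAA.
Isg15 chr4:156200819-156201068 (minus strand): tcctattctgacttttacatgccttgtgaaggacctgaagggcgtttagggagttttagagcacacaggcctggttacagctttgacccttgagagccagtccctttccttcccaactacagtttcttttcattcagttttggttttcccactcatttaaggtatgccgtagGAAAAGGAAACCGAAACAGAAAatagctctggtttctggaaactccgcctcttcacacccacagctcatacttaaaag
Ifit3 chr19:34583279-34583528 (plus strand): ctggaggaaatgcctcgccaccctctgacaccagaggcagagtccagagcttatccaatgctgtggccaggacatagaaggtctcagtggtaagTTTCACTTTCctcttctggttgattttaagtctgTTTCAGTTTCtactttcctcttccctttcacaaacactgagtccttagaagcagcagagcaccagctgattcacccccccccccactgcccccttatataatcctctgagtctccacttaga
Ifit2 chr19:34550444-34550693 (plus strand): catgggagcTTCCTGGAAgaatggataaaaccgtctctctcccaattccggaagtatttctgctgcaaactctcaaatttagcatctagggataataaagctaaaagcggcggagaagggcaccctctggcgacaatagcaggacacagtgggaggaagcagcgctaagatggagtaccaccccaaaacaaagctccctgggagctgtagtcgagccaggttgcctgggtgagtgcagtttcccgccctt
Stat2 chr10:128270248-128270497 (plus strand): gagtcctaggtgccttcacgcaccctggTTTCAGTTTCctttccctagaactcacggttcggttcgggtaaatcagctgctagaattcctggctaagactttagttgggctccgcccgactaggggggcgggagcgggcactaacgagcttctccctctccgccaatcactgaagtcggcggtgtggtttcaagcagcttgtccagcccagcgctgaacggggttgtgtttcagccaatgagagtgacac
B2m chr2:122147437-122147686 (plus strand): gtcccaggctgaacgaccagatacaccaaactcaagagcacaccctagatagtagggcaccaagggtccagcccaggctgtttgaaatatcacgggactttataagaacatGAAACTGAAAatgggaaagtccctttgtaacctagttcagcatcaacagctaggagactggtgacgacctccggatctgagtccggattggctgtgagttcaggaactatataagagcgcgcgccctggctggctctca

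Isg15 holds 3 overlapping matches to the response element, which begin 78, 72 and 66 bases before the start. Ifit3 holds 2, at 156 and 122 bases. Stat2 and B2m hold 1 each, at 222 and 139 bases. The window of Ifit2 shown holds no match to the response element and 1 to the gamma-activated site, at 241 bases, and the window of its second annotated start holds neither. Promoter windows, here of 250 bases before to 50 after a start, were found for 29 of 34 members, in 34 windows. Of these windows, 14 (41.2%) held the response element, each for a different member, compared with 3.44% of all 32851 mouse windows. The gamma-activated site was in 8 windows (23.5%), compared with 8.3% of all windows. A match describes the letters only, and the genes of 1 pathway were chosen here by name.

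Values are log2 of the background-subtracted signal relative to the 75th percentile of the same array. A value of 0 therefore lies at that percentile, and a difference of 1 is a doubling. Probes differ in how brightly they report a transcript, so levels are compared between arrays and not between genes. Between 59.1% and 66.5% of probes were well above background on each array, and the 75th percentile lay between 1183.9 and 1611.1 intensity units. For the tissue labels, Atoh1, of granule neuron precursors, was not above background in any normal cerebellum and was well above it in 12 of 12 tumours, and the summed signal of 7 Purkinje cell genes was 318.8 to 338.7 times the percentile in normal cerebellum and 5.32 to 9.57 times in tumours. The 15 arrays lay on 4 slides, of which 3 held 1 normal cerebellum each. The 3 tumours of each group had different ages, while NC1 and NC2 were both at 103. No label says outright that samples of a group came from separate animals, and p-values then measure only the spread between these samples.

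In tumours compared with normal cerebellum, 16 of 31 tested members rose and 4 fell at an adjusted p under 0.05 (limma with Benjamini-Hochberg adjustment over all tested genes). The background was high: 43.4% of all tested genes rose and 35.5% fell in the same comparison, so a call in this comparison was common among all genes and no more common among the members. The median change of the members was 0.38 on the log2 scale, against 0.13 for all tested genes. The members moved unevenly. Ifit2, Ifitm2, Bst2 and Psmb8 rose about as much as Ifit3 and Stat2 fell or more, and Isg15, Usp18 and Irf9 were not called. In bulk tissue, fewer cells of a type and less RNA per cell cannot be told apart. No strain or genotype is given for the normal cerebella, so a difference of strain and one of tissue cannot be told apart either.

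**Figure D1:**
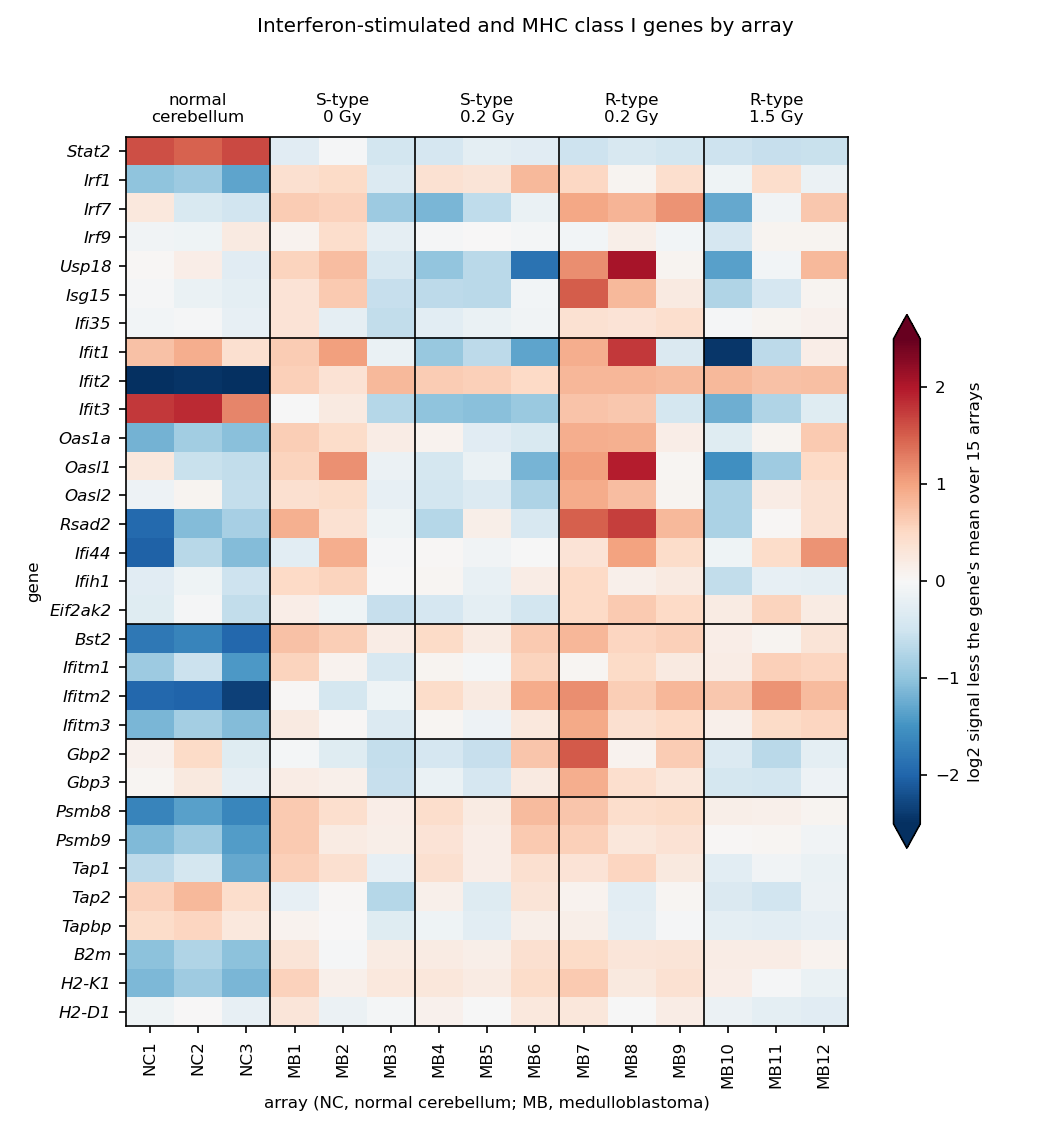
Heat map of 31 tested members (vertical axis, by role from top: signalling, antiviral effectors, membrane restriction factors, guanylate-binding proteins, MHC class I) on 15 arrays (horizontal axis, 3 a group). Colour is the log2 signal less the gene's mean over the 15 arrays, and colours end at 2.5 in both directions. Ifit2, Bst2, Ifitm2 and Psmb8 are low in all 3 normal cerebella, Stat2 and Ifit3 are high there, and Ifit1, Usp18, Oasl1 and Irf7 have the widest SD among tumours.

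Among the 7 genes of interferon signalling, Irf1 rose, Stat2 fell and 5 were not called. Stat2 (chromosome 10), the STAT that pairs with IRF9 in the type I response, was at 1.77, 1.64 and 1.81 in the normal cerebella. In the 12 tumours it ran from -0.41 through a median of -0.28 to 0.12. Every tumour lay below every normal sample, and the fall was -1.98 (95% interval -2.15 to -1.80, adjusted p = 3.695e-10), a 3.94-fold lower signal. Its differences within 3 slides were -2.15 to -1.89.

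Irf1 (chromosome 11), a transcription factor induced by interferon-gamma, was at -0.40, -0.30 and -0.71 in normal cerebellum. In tumours it ran from 0.27 (MB3) through a median of 0.99 to 1.41 (MB6). The groups did not overlap, and the rise was 1.34 (0.93 to 1.76, adjusted p = 3.264e-05). A second probe of Irf1 rose by 1.01. Irf9, the DNA-binding partner of STAT2, averaged -0.99 ± 0.19 (SD, n = 3) in normal cerebellum and -0.995 ± 0.21 (SD, n = 12) in tumours, a difference of -0.01 with an interval of -0.31 to 0.29.

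The other 4 genes of this group spread widely among tumours on both sides of the normal level. Usp18, a protease that removes ISG15 and dampens the type I receptor, was at -3.77, -3.63 and -4.07 in normal cerebellum. In tumours it ran from -5.64 (MB6, where it was not well above background) through -3.79 to -1.73 (MB8). The mean difference was 0.04, with an interval of -0.98 to 1.05. Isg15, the ubiquitin-like protein that is conjugated to others during the response, was at -2.62, -2.75 and -2.84 in normal cerebellum and between -3.34 (MB10) and -1.08 (MB7) in tumours. Irf7, the factor that amplifies interferon production, was well above background in 8 of 12 tumours and 2 of 3 normal samples, with a difference of 0.25 (-0.61 to 1.11). Ifi35 differed by 0.12 (-0.18 to 0.43). None of these 4 genes separated tumours from normal cerebellum.

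Among the 10 tested antiviral effectors and sensors, 6 rose, 1 fell and 3 were not called. The IFIT proteins bind foreign RNA, and their genes lie together on chromosome 19, yet they moved apart. Ifit2 (probe A_51_P161021) was at -3.87, -3.56 and -4.19 in the normal cerebella. In the 12 tumours it lay between -0.75 (MB2) and -0.28 (MB8), with a median of -0.38. The rise of 3.44 (3.20 to 3.69, adjusted p = 6.014e-11), or 10.9-fold, was the largest of the 31 tested members. A second probe rose by 3.70.

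Ifit3 (probe A_51_P359570) went the other way. It was at 0.68, 0.77 and 0.13 in normal cerebellum and ran from -2.31 (MB10) through -1.67 to -0.38 (MB7) in tumours. All 12 tumours lay below the 3 normal samples, and the fall was -2.02 (-2.61 to -1.43, adjusted p = 1.926e-05). Ifit1 was at -4.56, -4.39 and -4.89 in normal cerebellum, and only 4 of 12 tumours were well above background. It ran from -7.73 (MB10) to -3.52 (MB8) in tumours and was not called, at -0.85 (-1.94 to 0.24). Ifit2, whose window above holds no response element, rose, while Ifit3, with 2 matches, fell. The promoters shown were picked for their different directions. Of the 14 members whose windows held the element, B2m, Bst2, Eif2ak2, Ifih1, Ifitm2, Ifitm3, Oas1a and Rsad2 rose. Ifit3 and Stat2 fell, and Gbp2, Gbp3, Ifit1 and Isg15 were not called. The windows were not tested for activity.

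Rsad2, which encodes the antiviral enzyme viperin, was at -5.44, -4.58 and -4.32 in normal cerebellum. In tumours it ran from -4.28 (MB10) through -3.22 to -1.76 (MB8). The groups did not overlap, although MB10 lay just above the highest normal sample, and the rise was 1.61 (0.92 to 2.30, adjusted p = 0.0004774). Its 2 dimmer probes, well above background on 6 and 5 arrays, rose by 0.77 and differed by 0.75 without passing the test.

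Oas1a, an enzyme that senses double-stranded RNA and activates RNase L, rose by 1.29 (0.85 to 1.73, adjusted p = 7.276e-05), from -4.95 to -4.64 in normal cerebellum to -4.16 to -2.87 in tumours. Its relatives Oasl1 and Oasl2 were not called, at 0.38 (-0.62 to 1.38) and 0.27 (-0.29 to 0.83). Oasl1 was well above background in 5 of 12 tumours and 1 of 3 normal samples. Oas2 was well above background in MB2 alone. Ifi44 was not well above background in any normal cerebellum and was so in 3 tumours (MB2, MB8 and MB12). It is counted among the 6 that rose, but it entered the test only through those tumours, and with 9 of 12 tumours not well above background no fold is given.

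Eif2ak2, the double-stranded RNA-dependent kinase PKR, rose by 0.40 (0.07 to 0.72, adjusted p = 0.02661) and Ifih1, the RNA sensor MDA5, by 0.38 (0.07 to 0.70, adjusted p = 0.02607). For both genes tumours and normal samples overlapped. Both calls were lost without scaling between arrays, with slide as a block, and without NC1 or NC3, with adjusted p of 0.06443 to 0.1839 for Eif2ak2 and 0.05422 to 0.2327 for Ifih1.

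All 4 membrane restriction factors rose, with a median of 1.77. Bst2 (chromosome 8), the tether that holds budding virus at the cell surface, was at -1.20, -1.06 and -1.37 in normal cerebellum. It ran from 0.66 (MB11) through 1.10 to 1.42 (MB7) in tumours, a rise of 2.26 (1.98 to 2.53, adjusted p = 6.28e-09). The IFITM proteins block fusion of virus with the cell membrane, and their genes lie together on chromosome 7. Ifitm2 was at -2.05, -2.08 and -2.41 in normal cerebellum and ran from -0.53 (MB2) through 0.57 to 1.09 (MB7) in tumours. It rose by 2.62 (2.27 to 2.98, adjusted p = 1.675e-08), and its second probe by 2.47. Ifitm3 and Ifitm1 rose by 1.28 (0.96 to 1.60) and 1.20 (0.72 to 1.67). No tumour overlapped a normal sample for any of the 4 genes. How often that held over all tested genes was not computed, and 43.4% of them rose in this comparison.

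The 2 guanylate-binding proteins, GTPases that act against intracellular pathogens, were not called. Gbp2 ran from -3.29 (MB11) to -1.08 (MB7) in tumours around normal values of -2.52, -2.14 and -2.92. Its difference was -0.11 (-0.78 to 0.56), and that of Gbp3 was -0.03 (-0.44 to 0.39).

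Among the 8 genes of MHC class I and antigen processing, 5 rose, 2 fell and H2-D1 was not called, with a median of 1.08. Psmb8 and Psmb9 (chromosome 17) encode catalytic subunits that replace the constitutive ones in the immunoproteasome. Psmb8 was at -1.82, -1.53 and -1.81 in normal cerebellum and from -0.12 (MB12) through 0.25 to 0.62 (MB6) in tumours. It rose by 1.93 (1.66 to 2.20, adjusted p = 2.359e-08), with 1.85 for a second probe, and Psmb9 rose by 1.41 (1.12 to 1.71). As a comparison, all 14 constitutive proteasome subunits also rose, with a median of 0.78 and changes from 0.50 to 1.10.

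The TAP transporter carries peptides into the endoplasmic reticulum and is built from TAP1 and TAP2, which went in opposite directions. Tap1 was at -5.07, -4.86 and -5.71 in normal cerebellum, with 2 of 3 arrays well above background, and from -4.70 to -3.84 in tumours. It rose by 0.98 (0.60 to 1.37, adjusted p = 0.0002319). Tap2 was at -2.33, -2.09 and -2.47 and from -3.62 (MB3) through -3.09 to -2.58 (MB6) in tumours. It fell by 0.77 on the log2 scale (interval -1.13 to -0.41, adjusted p = 0.0009707). Tapbp, or tapasin, which loads peptide onto class I, fell by 0.52 (interval -0.76 to -0.29, adjusted p = 0.0006934). A second probe of Tapbp differed by -0.23 and was not called.

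B2m, the light chain that every class I molecule needs, was at 0.98, 1.25 and 0.97 in normal cerebellum and from 1.97 (MB2) through 2.21 to 2.49 (MB7) in tumours. It rose by 1.17 (0.97 to 1.37, adjusted p = 1.218e-07), and a second probe by 0.99. H2-K1, a classical heavy chain, was at 1.27, 1.50 and 1.26 and from 2.23 (MB12) through 2.65 to 3.04 (MB7) in tumours, a rise of 1.31 (1.06 to 1.56). Its other probes rose by 0.64 and 1.66. H2-D1, the second classical heavy chain, was at 2.91, 3.02 and 2.81 in normal cerebellum and from 2.72 to 3.32 in tumours. It was not called at 0.12 (-0.10 to 0.34), whereas a second probe rose by 0.30 (adjusted p = 0.01618). Class I genes are close in sequence, so the share of each in its probe's signal is uncertain. With the strain of the normal cerebella not given, a difference of strain cannot be told apart from tumour for these genes either.

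**Figure D2:**
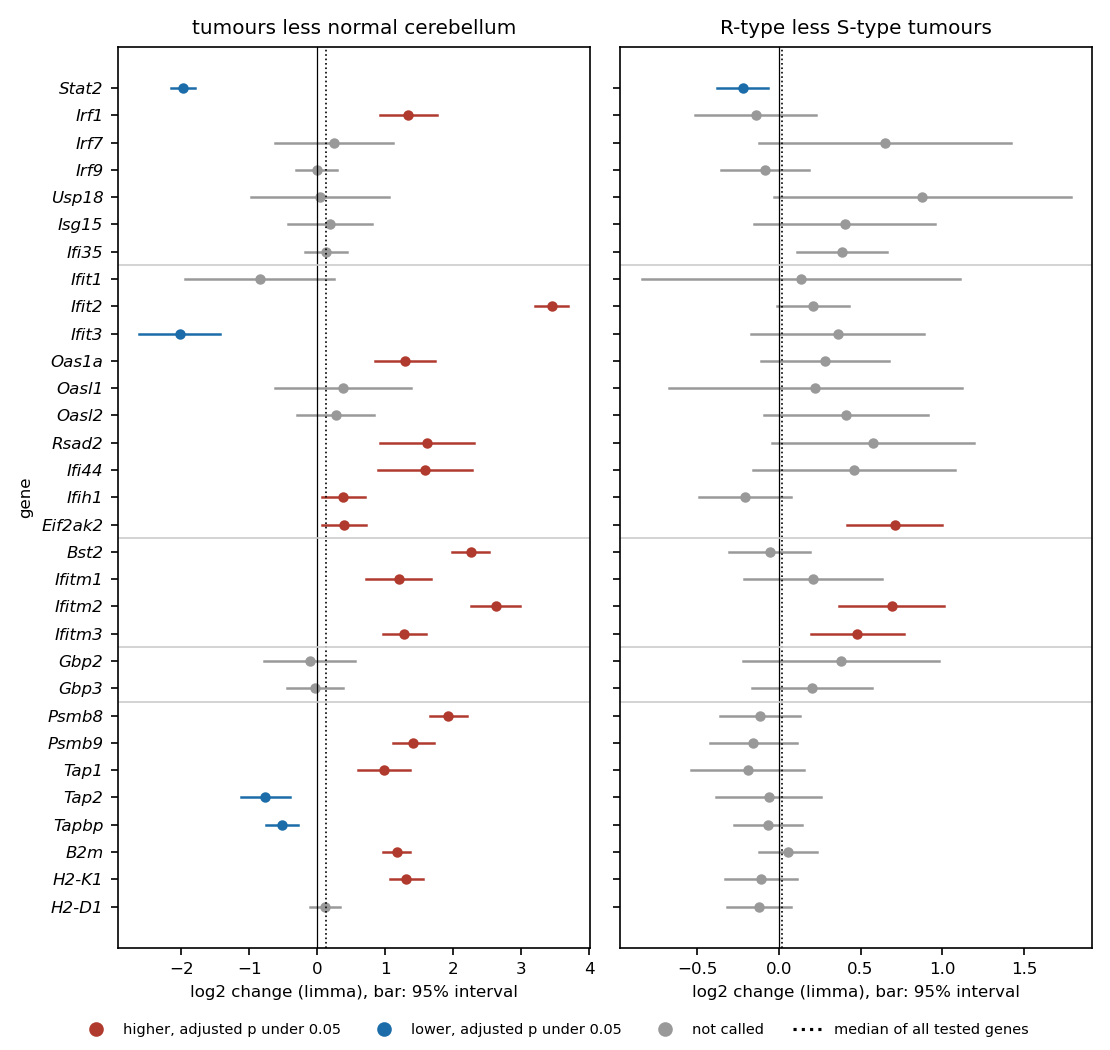
Log2 changes of 31 members (points) with 95% intervals from limma (bars), for tumours less normal cerebellum on the left and R-type less S-type tumours on the right, with different horizontal scales. Dotted lines mark the median of all tested genes, 0.13 and 0.02. On the left 16 members are higher and 4 lower; on the right 3 are higher and 1 is lower.

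Markers of other cells were read beside these changes. Of 15 microglia and macrophage genes, 12 rose and 1 fell in tumours, and their summed signal was 12.9 to 17.3 times the percentile in normal cerebellum and 39.3 to 73.2 times in tumours. The 5 MHC class II genes that rose, of 6 tested, included H2-Ab1 at 2.90 and Cd74 at 1.83. Of 13 T and NK cell markers, Cd4, Cd8a, Gzma, Gzmb, Prf1 and Ncr1 were not above background in any tumour. In normal cerebellum 8 of the 13 were not above background on any array. The summed signal of the 13 was 12.5 to 13.9 times the percentile there and 0.23 to 0.46 times in tumours. Klrb1c alone made up most of the sum in normal cerebellum, so the fall of the sum is mainly that of 1 gene. Its mean was 3.70 on the log2 scale in normal cerebellum and -3.86 in tumours. The summed signal of 10 endothelial genes was 14.8 to 16.9 in normal cerebellum and 9.96 to 19.9 in tumours. The part of these cells in the members' changes was not tested.

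The rest of the pathway also moved unevenly. Of 12 interferon genes, 8 were on the array and 2 (Ifna2 and Ifna5) were tested, neither of them called. Ifnb1 and Ifng were not above background on any array. Of 15 tested receptors and JAK-STAT genes, 5 rose and 7 fell, with a median of -0.18. Socs3, a feedback inhibitor of cytokine signalling, rose by 5.50 and the phosphatase gene Ptpn6 by 2.39. Jak1, a kinase of both receptor types, changed by -0.99, and Ifnlr1, a receptor for interferon-lambda, was not above background in any tumour and was at least 2.23-fold lower.

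Of 16 nucleic acid sensing genes, 9 rose and 6 fell. Those with the smallest adjusted p were Rnaseh2a (1.73), Irf8 (3.00), Samhd1 (1.06) and Tlr7 (2.48). Irf8 and Tlr7 are also genes of macrophages. Of 33 other interferon-stimulated genes, 17 rose and 9 fell, with a median of 0.56. Lgals3bp rose by 2.05 and Ifi204 by 2.74, Znfx1 changed by -1.24, and Epsti1, not above background in normal cerebellum, was at least 3.01-fold higher. Cxcl10, a chemokine chosen here after its value was seen, was not above background in normal cerebellum and was at least 20.8-fold higher. Of 12 other class I genes, 7 rose and 2 fell. Cd1d1, which presents lipids, rose by 7.20, the proteasome activator genes Psme1 and Psme2 by 1.70 and 1.05, and the peptide editor gene Tapbpl changed by -1.44.

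Between tumour types, 3 of 31 members rose in R-type and 1 fell, against 10.7% of all tested genes that rose and 10.1% that fell. Neither share of the members exceeded that background. The doses of each type were pooled here, so dose as well as age varied with type. The median difference of the members was 0.21, and that of all genes 0.02. The 8 class I and antigen processing genes had differences between -0.19 and 0.05, with intervals that reached from -0.53 (Tap1) to 0.26 (Tap2). None of them was called by limma, and none had an unadjusted p under 0.05. Without scaling between arrays the median of all genes was -0.20, and H2-D1, H2-K1, Psmb8, Psmb9 and Ifih1 then passed the test as lower.

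Eif2ak2 separated the types. In S-type tumours it was at -3.03, -3.29, -3.77, -3.61, -3.42 and -3.64 (MB1 to MB6). In R-type tumours it was at -2.69, -2.53, -2.70, -2.98, -2.64 and -2.98 (MB7 to MB12). Every R-type tumour lay above every S-type tumour, and the difference was 0.71 (0.42 to 1.00, adjusted p = 0.003801). It was positive on 4 of 4 slides, at 0.49 to 1.18. The normal samples, at -3.80 to -3.22, lay within or near the range of the S-type tumours.

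Ifitm2 was at -0.06, -0.53, -0.18, 0.38, 0.14 and 0.84 in S-type and at 1.09, 0.54, 0.75, 0.60, 1.03 and 0.71 in R-type tumours. Only MB6 among the S-type tumours reached the R-type range. The difference was 0.69 (0.37 to 1.01, adjusted p = 0.007478), positive on 4 of 4 slides, and 0.64 for the second probe. At 0.2 Gy alone the difference was 0.34 and was not called. The mean was -0.26 in S-type at 0 Gy and 0.45 in S-type at 0.2 Gy. In R-type it was 0.79 at 0.2 Gy and 0.78 at 1.5 Gy. Ifitm3 differed by 0.48 (0.20 to 0.76, adjusted p = 0.02335), with overlap between the types and with -0.01 to 0.77 within slides. Its call was lost without scaling, with slide as a block, and without MB5 or MB11, at adjusted p of 0.05351 to 0.1681. Stat2 differed by -0.22 (-0.38 to -0.06, adjusted p = 0.0475), and this call was lost in 17 of the alternatives, leaving out any of NC1 to NC3, MB1, MB2 or MB5 to MB12 among them, at adjusted p of 0.05154 to 0.1138. Ifi35 differed by 0.38 (adjusted p = 0.05006) and was called under 6 alternatives. At 0.2 Gy alone, limma called none of Ifitm3, Stat2 and Ifi35.

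In the rest of the pathway, R-type tumours had higher Socs3 (0.42), Irf3 (0.31), Trex1 (0.20), Parp9 (0.60), Nmi (0.29) and Psma6 (0.26), and lower Trim30a (-0.56) and Cd1d1 (-0.62). Higher were 1 of 15 receptor and JAK-STAT genes and 2 of 16 sensing genes. So were 3 of 33 other interferon-stimulated genes and 1 of 14 constitutive proteasome subunits. Lower were 1 of the 33, 1 of 12 other class I genes and 1 of 6 MHC class II genes. Over all tested genes, 10.7% were higher and 10.1% lower. Of 15 microglia and macrophage genes, 3 were lower in R-type tumours and none was higher, with summed signals of 48.5 to 73.2 in S-type and 39.3 to 63.4 in R-type tumours. The 10 endothelial genes had summed signals of 9.96 to 17.9 in S-type and 14.7 to 19.9 in R-type tumours, and none was called. Their part in the members' differences was not tested.

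At the dose that both types share, 0.2 Gy, 28 of 31 members had a higher mean in R-type than in S-type tumours, against 53.2% of all tested genes. For 15 members the groups of 3 did not overlap, all with R-type higher, against 16.6% of all tested genes with R-type higher and no overlap. Of these 15, Eif2ak2 (0.92, adjusted p = 0.02069), Rsad2 (1.67, adjusted p = 0.0375) and Usp18 (2.27, adjusted p = 0.04913) passed the test, against 1.97% of all tested genes that rose and 2.82% that fell. No member fell. The unadjusted p was under 0.05 for 14 of 31 members, against 21.9% of all tested genes. Ages did not overlap between these groups either, at 128 to 135 for S-type and 106 to 127 for R-type. The median difference was 1.02 for the antiviral effectors and 0.05 for the class I genes, against 0.02 for all genes. The former includes differences taken near background. Ifit1 and Ifi44 were well above background in 0 of 3 S-type tumours at 0.2 Gy, and Oasl1 in 1 of 3. The other tested antiviral effectors were so in every tumour of both groups.

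Usp18 was at -4.77, -4.47 and -5.64 in MB4 to MB6 and at -2.62, -1.73 and -3.72 in MB7 to MB9. The R-type tumours were all higher, MB8 the most, with an interval of 0.99 to 3.55. Rsad2 was at -4.21, -3.34 and -3.88 in the S-type and -1.99, -1.76 and -2.67 in the R-type tumours, and its dimmer probes, on 6 and 5 arrays well above background, differed by 1.79 (adjusted p = 0.0229) and 1.19 (adjusted p = 0.3022). Ifit3, just outside the threshold, was at -2.10, -2.14 and -2.02 against -0.38, -0.42 and -1.53, a difference of 1.31 (0.56 to 2.06, adjusted p = 0.05113). Isg15 was at -3.25, -3.25 and -2.65 against -1.08, -1.77 and -2.35, a difference of 1.31 (0.53 to 2.10, adjusted p = 0.05824). With the doses of each type pooled, limma called neither Usp18 (0.88, adjusted p = 0.1529) nor Rsad2 (0.58, adjusted p = 0.1675). The mean of Usp18 was -4.00 in R-type at 1.5 Gy and -3.49 in S-type at 0 Gy. That of Rsad2 was -3.62 and -3.10 in the same groups.

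These calls depended on single arrays and settings. Leaving out 1 array gave 0 to 7 members higher. Each of the 3 calls was lost without MB4, MB6, MB7 or MB8 and with slide as a block. Those of Rsad2 and Usp18 were lost with only the groups compared in the fit, with no filter and with the mean of probes. That of Eif2ak2 was also lost without MB9, that of Rsad2 without NC2, MB5 or MB9, and that of Usp18 without NC1, NC2, NC3, MB1, MB5 or MB11. The adjusted p of the lost calls was 0.05043 to 0.06654 for Eif2ak2, 0.05393 to 0.113 for Rsad2 and 0.05056 to 0.1536 for Usp18. With normexp background correction 10 members were higher. Only slides 3 and 4 held both types at this dose, and the differences there were 2.15 and 0.74 for Usp18, 2.22 and 0.66 for Rsad2, and 0.92 and 0.73 for Eif2ak2.

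**Figure D3:**
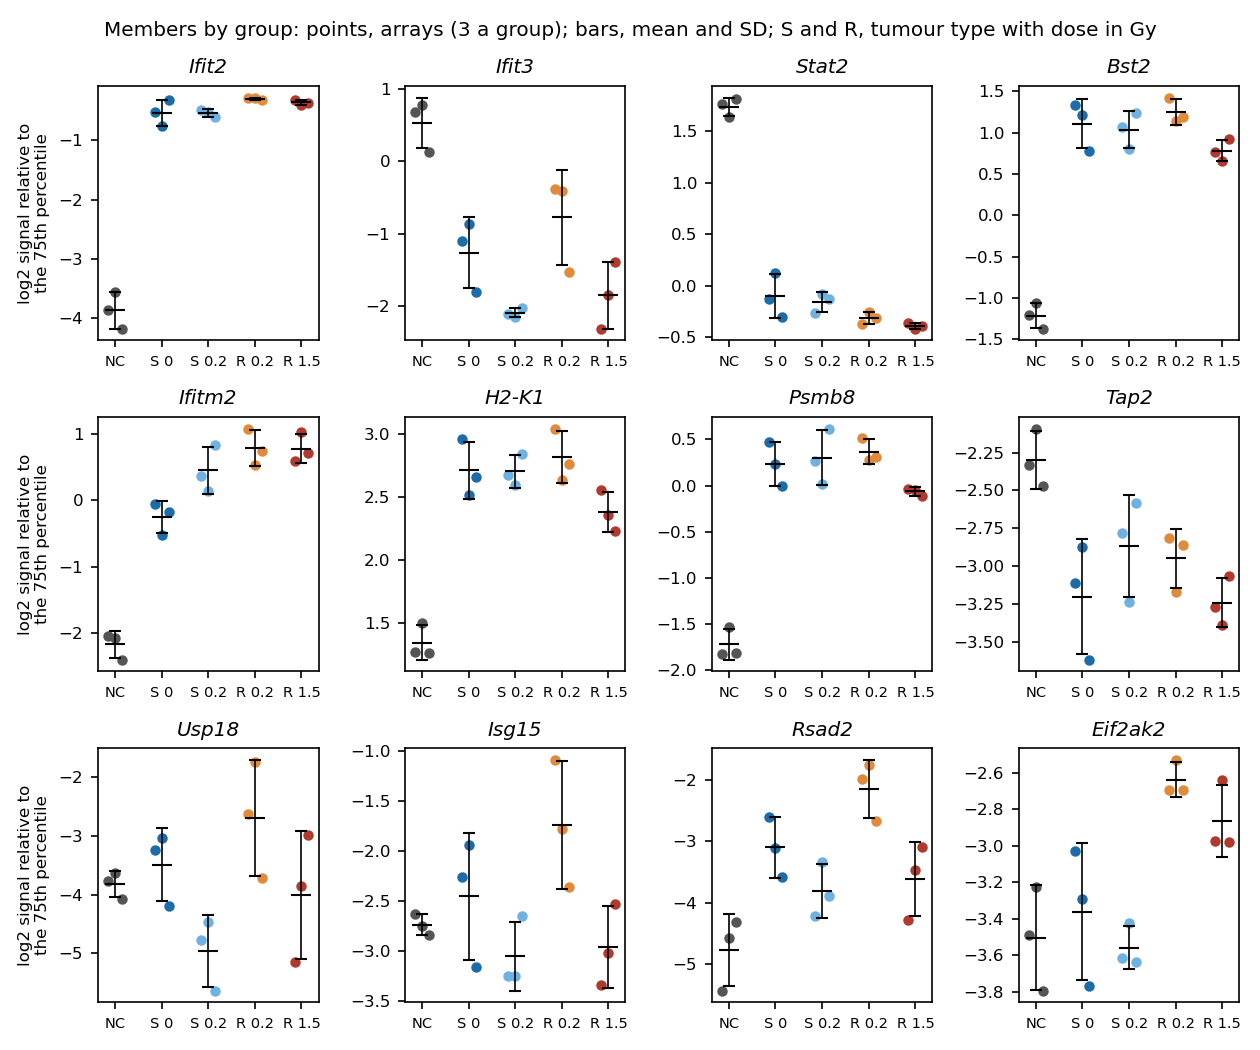
Log2 signal relative to the 75th percentile (vertical axis) of 12 members in the 5 groups (horizontal axis: NC, normal cerebellum; S or R, tumour type with its dose in Gy). Points are arrays, 3 a group, and bars are the mean and SD. Ifit2, Bst2, Ifitm2, H2-K1 and Psmb8 are higher in all tumours than in normal cerebellum, Stat2, Ifit3 and Tap2 are lower, and Usp18, Isg15 and Rsad2 are highest in R-type tumours at 0.2 Gy.

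No member passed at an adjusted p under 0.05 between doses of a type. Ages did not overlap between the doses, at 160 to 173 and 128 to 135 for S-type and at 106 to 127 and 87 to 103 for R-type, so dose and age cannot be told apart. In S-type tumours, 0.2 Gy was compared with 0 Gy, and limma called 0 of 31 members and 1 of 22203 tested genes (0.0045%). At an unadjusted p under 0.05 there were 6 members, against 5.77% of all tested genes. The groups did not overlap for 7 members. Of these 6 were lower at 0.2 Gy, against 3.88% of all tested genes, and 1 was higher, against 4.56%. Ifitm2 was the member higher, at -0.06, -0.53 and -0.18 without irradiation and 0.38, 0.14 and 0.84 at 0.2 Gy, a difference of 0.71 (0.26 to 1.16, adjusted p = 0.679). Usp18 was at -3.24, -3.03 and -4.20 without irradiation and was lower in all 3 tumours at 0.2 Gy, by -1.47 (-2.75 to -0.19, adjusted p = 0.8194).

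In R-type tumours, 1.5 Gy was compared with 0.2 Gy, and limma called 0 of 31 members and 15 of all tested genes (0.0676%). The means of 30 of 31 members were lower at 1.5 Gy, Ifitm1 being the exception at 0.19 (-0.41 to 0.79), while 47.8% of all tested genes had a lower mean. The unadjusted p was under 0.05 for 16 members, against 7.07% of all tested genes. The groups did not overlap for 14 members, all lower at 1.5 Gy, against 5.44% of all tested genes. The smallest adjusted p was 0.5948. Gbp2 was at -1.08, -2.53 and -1.97 at 0.2 Gy and -2.96, -3.29 and -2.86 at 1.5 Gy, a difference of -1.18 (-2.02 to -0.33). H2-K1 was at 3.04, 2.64 and 2.77 and at 2.55, 2.35 and 2.23, a difference of -0.44 (-0.75 to -0.12). Among the 15 microglia and macrophage genes 7 had an unadjusted p under 0.05, with a median of -0.39 and summed signals of 47.4 to 63.4 at 0.2 Gy and 39.3 to 49.0 at 1.5 Gy, and their part was not tested. This comparison and that of types at 0.2 Gy share MB7 to MB9, so the higher values of these 3 tumours enter both. The dose comparison within S-type shares MB4 to MB6 with that of types at 0.2 Gy.

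The members differed in how far they varied among the 12 tumours. The SD was 1.15 for Ifit1, 1.13 for Usp18, 1.02 for Oasl1, 0.87 for Irf7 and 0.80 for Rsad2 on the log2 scale, against a median of 0.26 over all tested genes and 0.20 over genes above background on 15 of 15 arrays. These SDs include arrays near background: Ifit1 was well above background in 4 of 12 tumours, Oasl1 in 5, Irf7 in 8, Usp18 in 11 and Rsad2 in 12. Among genes well above background in 12 of 12 tumours, Rsad2 spanned 5.74-fold, Isg15 4.77-fold, Gbp2 4.61-fold and Ifit3 3.82-fold. Among the 8 class I genes the span ran from 1.36-fold for Tapbp and 1.43-fold for B2m to 1.81-fold for Tap1 and 2.05-fold for Tap2. Ifit2, with the largest rise, spanned 1.39-fold, and Stat2 1.45-fold.

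Some tumours held the highest or the lowest value for several of these genes. MB7 had the highest value for 12 of 31 members and MB8 for 6, while MB10 had the lowest for 10 and MB3 for 8. The same shares over all tested genes were not computed, so these counts cannot be called particular to the members. MB3 and MB6 had the lowest share of probes well above background, 59.1% each. Ifit1 and Oasl1, both lowest in MB10, were not well above background there. As medians over the 10 tested antiviral effectors, the deviations from the tumour mean were 0.77 for MB7, 0.71 for MB8, 0.44 for MB2 and 0.38 for MB1, and -0.75 for MB10, -0.59 for MB6 and -0.51 for MB4. Over the 8 class I genes the order was another: MB1 stood at 0.28, MB7 at 0.26 and MB6 at 0.25, and MB12 at -0.32, MB11 at -0.26 and MB10 at -0.19. MB6 was low for antiviral effectors and high for class I genes, MB8 was high for the former and at 0.00 for the latter, and MB12 was at 0.23 and -0.32. The order was read from these values and was not tested.

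**Figure D4:**
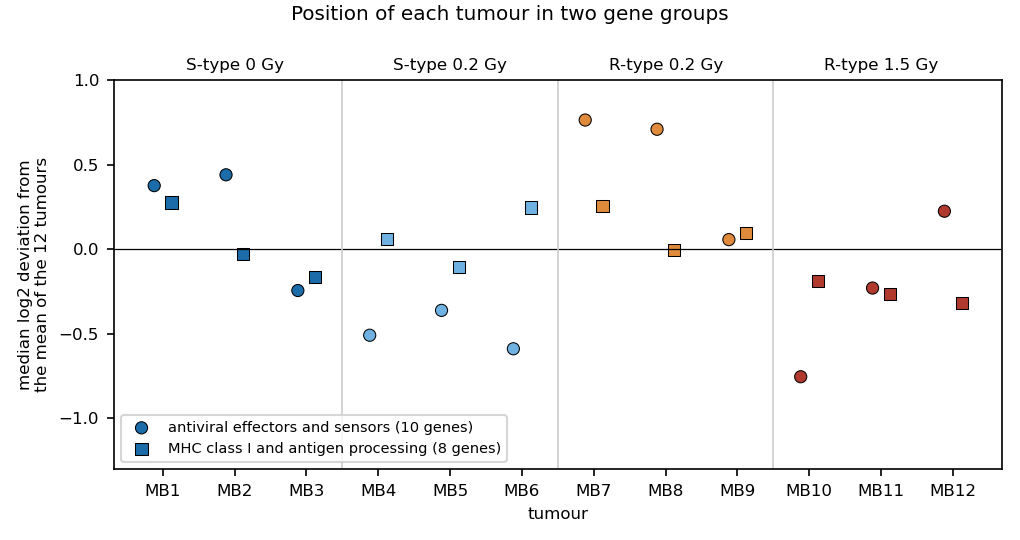
Median log2 deviation from the mean of the 12 tumours (vertical axis) for each tumour (horizontal axis), for 10 antiviral effectors and sensors (circles) and 8 class I and antigen processing genes (squares). Colours are the 4 tumour groups. MB7 and MB8 are highest for antiviral effectors and MB10 is lowest, while the class I medians stay between -0.32 and 0.28.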

How the data were processed

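RNA of 15 samples was hybridised to 15 arrays, 1 per sample. Spot intensity was deposited per array; per the file headers the authors' extraction subtracted background and fitted a spatial trend. The submitters' processing notes name Feature Extraction 9.5.1 by Agilent. The deposited series table holds log2 values by the authors; its column medians were -0.08 to 0.15, its differences between arrays correlated with those here at 0.999901 to 0.999996, and its centring was not given in the sources used here. From the scanner files, 76 probes with outlier flags were left out of 41174 non-control probes, log2 processed signal was set relative to each array's 75th percentile, and 24792 of 26335 probes with a RefSeq accession were named through a RefSeq table. A gene's probe with the highest mean was used (10 members have several), and a gene was tested where 3 or more arrays had it well above background. limma 3.58.1 in R 4.3.3 fitted all 5 groups at once (10 residual degrees of freedom), with Benjamini-Hochberg adjustment, and was checked on simulated data. The number of arrays limits the precision.

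The alternatives were normexp background correction (offset 50), quantile normalization, no scaling, the authors' table, no filter, a filter at 12 arrays, the mean of probes, slide as a block, only the groups compared, leaving out each array, and a shorter motif. Members and gene lists were chosen with earlier results of these data known. From each further pathway list, up to 4 genes with the smallest adjusted p against normal cerebellum and up to 3 between types are named, and all 34 members are accounted for. Each single tumour group against normal cerebellum is given only as levels.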

Additional observations from a re-analysis of the deposited data

Results flagged for a closer look

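Of 62 sets of values, 31 members in the S-type and in the R-type tumours, 1 had a sample far from the others: Ifi44 in S-type tumours was at -4.63 in MB2 and between -5.81 and -5.52 in the other S-type tumours. MB2 was the S-type tumour in which Ifi44 was well above background. Chance flags about 1 in 20 such sets.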

How the results depend on the processing

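Against normal cerebellum, 14 to 16 members were higher and 4 lower under every alternative run, and no called member changed direction in any comparison. Between types, 3 members were higher as reported and 7 with normexp. The 1 member lower became 0 with quantile normalization, no filter, slide as a block or only the groups compared, 6 without scaling, and 0 to 1 leaving out each array. At 0.2 Gy, the 3 members higher in R-type became 10 with normexp, 7 with quantile normalization, 5 with the filter at 12 arrays, 1 with no filter or the mean of probes, 0 with slide as a block, and 0 to 7 leaving out each array. The cause was not tested. Without scaling, the share of calls that were higher in R-type fell from 51.4% to 8.93% over all genes, and from 41.1% to 5.88% at 0.2 Gy. Dose comparisons had 0 members in all settings run. The shorter motif AANNGAAA was in 20 of 34 windows of members (58.8%), for 19 of 29 members, and in 23.9% of all windows. Signals near background limit Ifit1, Oasl1, Irf7, Ifi44 and Oas2. No replicate numbers are shared between groups, so slide was the block.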
